A study of Mus musculus with 29 samples.

Results

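Fat surrounds the aorta, and RNA of adipocytes was present in every aortic arch sample of this mouse series. Described here are 10 genes chosen by name as markers of white and brown adipocytes: *Adipoq*, *Lep*, *Retn* and *Cfd*, which encode secreted proteins, *Plin1*, *Cidec* and *Cidea*, which encode proteins of the lipid droplet, *Lpl* and *Fabp4*, which handle fatty acids on their way into the cell, and *Ucp1*, the proton leak of brown adipocytes. The counts table holds 56748 genes, of which 12353 were tested because over 10 of the 28 samples used held over 10 counts, and all 10 markers were among these. The list was chosen by the identity of the genes and not by their values, although earlier results of these data were known by then.

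All mice were F1 hybrids of C57BL6J and FVB. *Ercc1*Δ/- mice carry 1 null and 1 truncated allele of the DNA repair gene *Ercc1* in every cell and age prematurely, and WT littermates were the controls. Mice were fed AIN93G pellets ad libitum (AL) and sampled at 6 or 22 weeks of age, or were placed on dietary restriction (DR) from 7 weeks of age, which was stepped up weekly to 30% less food from 9 weeks on, and sampled at 22 weeks. All were housed singly, and each mouse gave 1 sample, so that the p-values given here measure the spread between mice. The groups held 5 WT and 5 *Ercc1*Δ/- mice at 6 weeks, 4 of each genotype at 22 weeks on AL and 5 of each at 22 weeks on DR, with 2 females per group except for 1 female in the 22-week AL-fed WT group. The whole arch was extracted in bulk and the mutation is present in all tissues, so that a difference in the amount of fat on the dissected arch cannot be told apart from a difference in expression within that fat.

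White adipocytes store triglyceride in 1 large droplet and secrete leptin and adiponectin, whereas brown adipocytes hold many small droplets and burn fatty acids for heat through uncoupling protein 1 in their mitochondria. Both depend on lipoprotein lipase, which releases fatty acids from circulating lipoproteins at the capillary wall. Fat around the thoracic aorta of mice is known to be brown-like, and such fat acts on vessel tone through the proteins that it secretes. In bulk tissue, fewer cells of a type and less RNA per cell cannot be told apart.

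Counts on genes totalled 921167 to 9616382 per sample, and the lowest totals lay in *Ercc1*Δ/- mice on DR (921167 to 2572523) and the highest in 22-week AL-fed WT mice (3903589 to 9616382). *Ercc1* itself was at 52.2 to 136 normalized counts in the 14 WT samples and at 28.2 to 78.7 in the 14 *Ercc1*Δ/- samples, where normalized counts are counts scaled to a common library size of 3683502 with TMM factors. It was lower in *Ercc1*Δ/- mice in each genotype comparison (log2 fold change -1.41, -0.97 and -1.01, adjusted p of at most 0.00271 in edgeR's quasi-likelihood test). The tissue was mainly smooth muscle, with summed levels of 8 smooth muscle genes between 61679 and 158218, against 2430 to 16889 for the 10 fat markers. Smooth muscle genes fell in 22-week AL-fed *Ercc1*Δ/- mice for 6 of 8 genes and 8 macrophage genes summed to 1191 to 2160 there against 629 to 887 in WT mice. The part of these RNA differences in the results given here was not tested.

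The upstream sequences of *Lep* and *Lpl*, which passed the test for diet and for genotype, and of *Ucp1*, the defining gene of brown fat, are shown first, as the 250 bases before the canonical GENCODE transcription start, read 5′ to 3′ on the strand of the gene (GRCm39). Capitals mark matches on either strand to TTGCNNAA, a motif bound by C/EBP proteins, and to TATAAA, the TATA box. C/EBP proteins are among the leading transcription factors of adipocytes.
Lep, chr6:29059966-29060215, + strand: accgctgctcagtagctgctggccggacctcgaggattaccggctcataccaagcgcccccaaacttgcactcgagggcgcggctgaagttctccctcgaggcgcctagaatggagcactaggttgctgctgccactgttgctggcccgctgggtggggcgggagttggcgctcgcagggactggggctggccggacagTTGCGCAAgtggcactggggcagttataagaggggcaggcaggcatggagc
Lpl, chr8:69332893-69333142, + strand: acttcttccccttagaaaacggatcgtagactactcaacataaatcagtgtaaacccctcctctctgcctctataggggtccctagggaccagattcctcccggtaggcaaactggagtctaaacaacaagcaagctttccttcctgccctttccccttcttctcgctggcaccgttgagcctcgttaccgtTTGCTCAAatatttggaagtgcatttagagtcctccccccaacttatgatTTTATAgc
Ucp1, chr8:84016691-84016940, + strand: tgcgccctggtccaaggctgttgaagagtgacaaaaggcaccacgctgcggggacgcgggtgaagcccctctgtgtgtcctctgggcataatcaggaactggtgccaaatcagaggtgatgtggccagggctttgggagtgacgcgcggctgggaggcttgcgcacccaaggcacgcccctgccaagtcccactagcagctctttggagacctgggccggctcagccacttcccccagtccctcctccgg

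TTGCNNAA occurred upstream of *Lep*, 51 to 44 bases before the start and readable on both strands, and upstream of *Lpl*, 58 to 51 bases before the start, that is in 2 of the 10 markers and in 7.88% of 11653 tested protein-coding genes. TATAAA was found in *Lpl* only, on the opposite strand, as against 6.9% of these genes. No match lay in the *Ucp1* window. These matches describe letters in a short window and were not tested for binding.

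**Figure D1:**
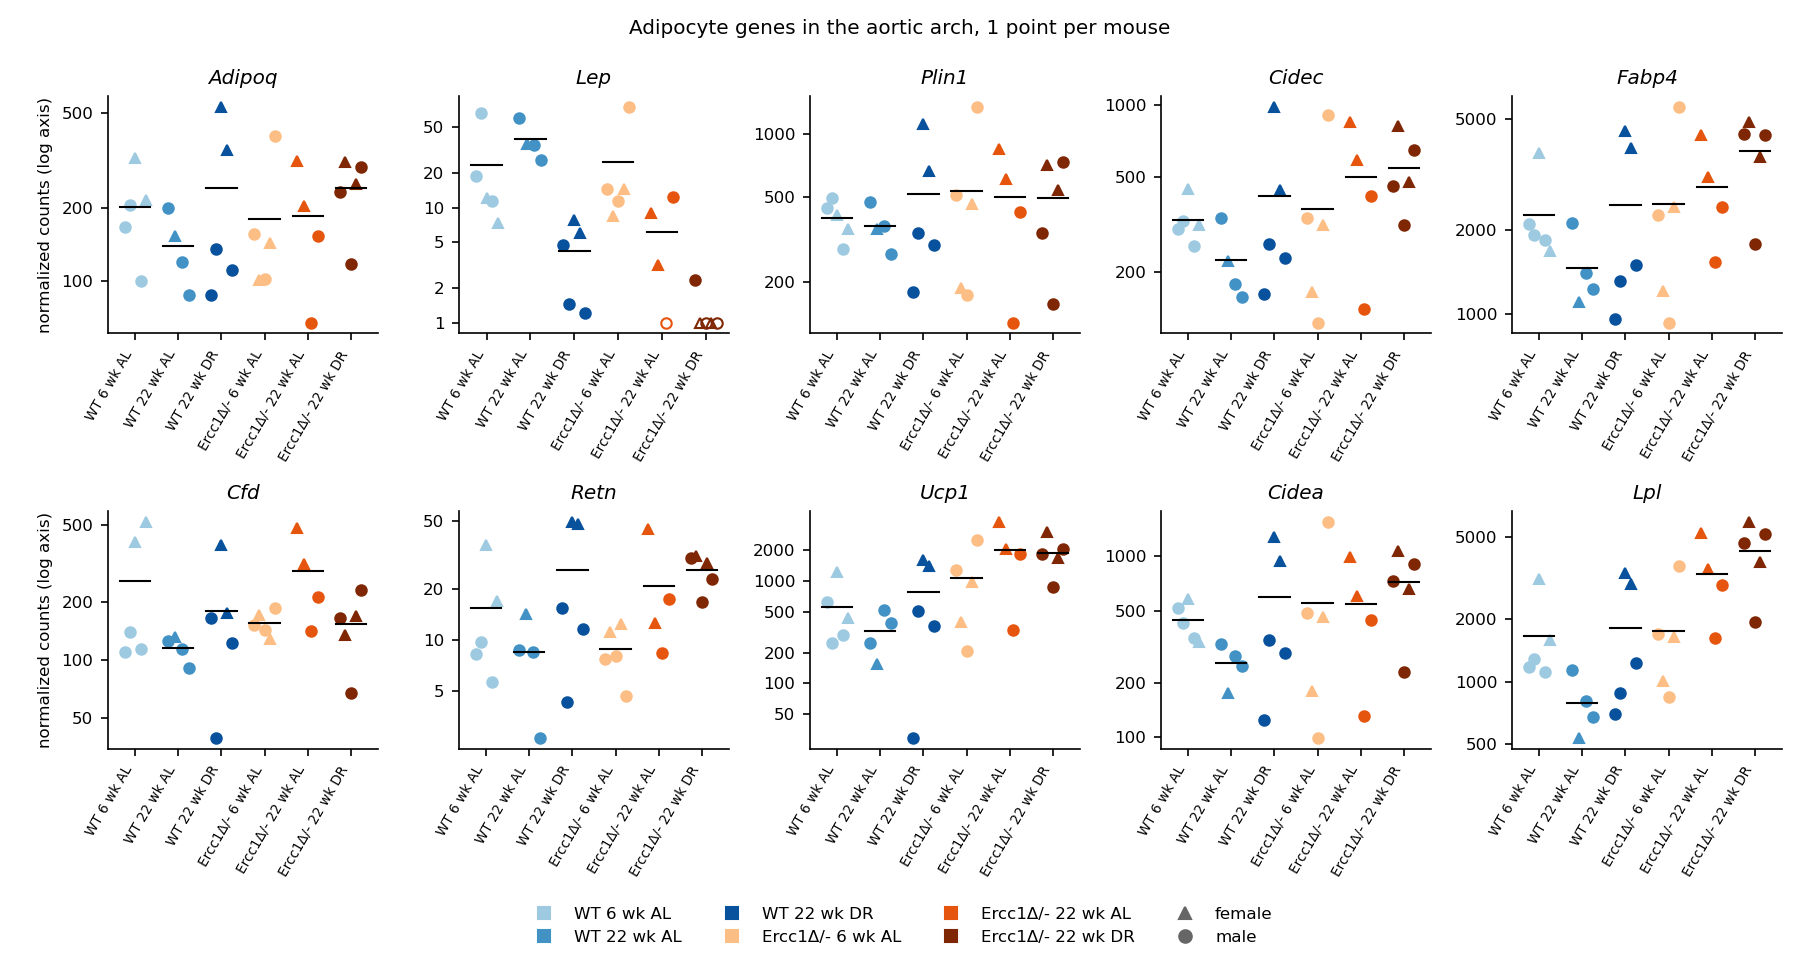
Normalized counts (log axis) of the 10 fat markers in each of 28 mice, by group, with females as triangles, males as circles and a bar at the group mean. Open symbols at the foot of the *Lep* panel are samples with 0 counts, 4 of which lie among the 5 *Ercc1*Δ/- mice on DR. *Lpl* of all 4 AL-fed *Ercc1*Δ/- mice at 22 weeks lay above that of the 4 WT mice of that age and diet.

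The markers ranged from abundant to barely detected. Per kilobase of exon, taken over all annotated transcripts of the gene, the median level over the 28 samples was highest for *Fabp4*, at 427 normalized counts per kilobase, and *Ucp1*, at 382. It was 194 for *Cidea*, 153 for *Cfd*, 133 for *Lpl*, 104 for *Cidec*, 71.2 for *Adipoq* and 66 for *Plin1*, and the sample ranges of neighbours in this order overlapped. *Retn*, at 4.61, and *Lep*, at 2.59, stood far below the rest, and only 14 and 11 samples had more than 10 counts of them. The 10 genes together took 0.0654% of gene counts in the lowest sample, a DR-fed WT male, and 0.486% in the highest, a 22-week AL-fed *Ercc1*Δ/- female, with a median of 0.15%. For these shares the 95% Wilson intervals were 0.0633% to 0.0676% and 0.479% to 0.493%. They cover counting error only, so that the spread between mice was much wider than the counting error.

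This spread between mice of the same group was a property of the whole list. After group and sex were accounted for, the residual SD of log2 CPM had a median of 0.74 over the markers and of 0.26 over all tested genes, and it ran from the 92.4th percentile of tested genes for *Retn* to the 99.9th for *Ucp1*. Within groups the markers rose and fell together. Deviations from the group mean of *Cidec*, which encodes a protein that enlarges lipid droplets, followed those of *Adipoq* with Pearson's r = 0.937 and Spearman's rho = 0.932 (n = 28, permutation test within groups, unadjusted p = 1e-05 for both, the smallest that 100000 permutations can give, adjusted p = 3.33e-05 over 10 relations), and r was 0.908 without the 2 samples with the most extreme *Adipoq* deviations. The relation was weaker for *Ucp1*, with r = 0.779 and rho = 0.696 (adjusted p = 2.00e-04 and 8.29e-04 by permutation, r = 0.727 without the same 2 samples). It was weakest for *Lep*, with r = 0.586 and rho = 0.524 (adjusted p = 0.00646 and 0.0156 by permutation, r = 0.461 without them). Depth did not follow the same pattern, since log2 total counts gave r = 0.048 and rho = 0.066 (adjusted p = 0.814 and 0.761 by permutation, r = 0.042 without them).

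Across all 28 samples, group differences included, *Cidec*, *Cidea*, *Adipoq* and *Fabp4* followed the mean of the other 9 markers with Spearman correlations of 0.932, 0.922, 0.919 and 0.917, given as a description. *Plin1*, the perilipin that guards the droplet against lipases, had 0.860, *Lpl* 0.822 and *Ucp1* 0.783. *Retn* and *Cfd* had 0.583 and 0.559, and *Lep* had -0.116 over all samples, group differences included, although it followed *Adipoq* within groups. The genes outside the list with the most similar pattern were mainly mitochondrial. The droplet genes *Plin1*, *Cidec* and *Cidea* belong to the list and were not ranked. *Mpc2*, a subunit of the mitochondrial pyruvate carrier, had a correlation of 0.963 with the mean of the markers, *Acsl1*, which activates fatty acids, 0.959, *Idh3a* of the citric acid cycle 0.946 and *Gpam*, the entry enzyme of triglyceride synthesis, 0.945. *Cpt2* and *Hadha* of fatty acid oxidation, *Cycs*, *Sucla2*, *Sdhd*, *Atp5f1b*, *Otop1* and *Acaa2* followed with 0.935 to 0.941.

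The effect of the *Ercc1* genotype was compared first at 6 weeks. None of the markers differed between *Ercc1*Δ/- and WT mice there, in a comparison in which 1.70% of tested genes were called, that is, had an adjusted p of at most 0.05 in edgeR's quasi-likelihood test and at least a 1.2-fold difference. None of the 10 had an unadjusted p under 0.05, DESeq2 called none, and the genotypes overlapped for each marker, while they did not for 2.87% of tested genes. *Ucp1* averaged 1072 ± 905 normalized counts (SD, n = 5) in *Ercc1*Δ/- and 560 ± 392 (SD, n = 5) in WT mice (log2 fold change 1.05, SE 0.74, adjusted p = 0.635). *Adipoq* averaged 181 ± 125 and 204 ± 82.2 (log2 fold change -0.12, SE 0.45, adjusted p = 0.946). The median log2 fold change of the markers was 0.17, against 0.02 over all tested genes.

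At 22 weeks on AL, *Lpl*, a gene at chr8:69284603-69360100 on the + strand whose product frees fatty acids from lipoproteins, was higher in *Ercc1*Δ/- mice. It stood at 5227, 3505, 1618 and 2914 normalized counts in the *Ercc1*Δ/- samples 004, 005, 013 and 026, and at 1143, 534, 803 and 676 in the WT samples 012, 018, 020 and 025. Even the lowest *Ercc1*Δ/- sample lay above the highest WT sample. The group means were 3316 ± 1498 (SD, n = 4) and 789 ± 260 (SD, n = 4), a log2 fold change of 1.97 (SE 0.53, adjusted p = 0.0262). *Lpl* was the only marker called, while 12.0% of all tested genes were called in this comparison and 5.88% were called up, so that the count of 1 in 10 was near the background. The call was not stable. It held in 2 of the 8 fits that left out 1 mouse, those without *Ercc1*Δ/- sample 013 or WT sample 012, and was lost without any of the samples 004, 005, 018, 020, 025 or 026 (adjusted p 0.0199 to 0.107 over the 8 fits, highest without 018). The log2 fold change stayed between 1.66 and 2.25 in these fits. It was 1.25 (adjusted p = 0.198) when sample 003, a shallow library of a 22-week AL-fed WT female that the study left out, was added.

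*Lep*, at chr6:29060216-29073877 on the + strand, encodes the hormone that reports fat stores to the brain and went the other way at 22 weeks on AL. It had 9.02, 3.15, 0 and 12.4 normalized counts in the 4 *Ercc1*Δ/- mice and 60.2, 35.9, 35 and 25.8 in the 4 WT mice. The groups did not overlap, but the fitted difference did not pass the threshold (log2 fold change -2.20, SE 0.86, adjusted p = 0.116). Summed over each group these are 18 reads against 249, and relative to library size the WT level was 5.57 times that of *Ercc1*Δ/- mice, with a 95% interval for counting error of 3.45 to 9.55. The sample with 0 counts had a shallow library, in which a limit of 3 counts is 8.37 normalized counts. DESeq2 called *Lep* lower in *Ercc1*Δ/- mice (log2 fold change -2.36, adjusted p = 0.032), and so did edgeR with all libraries thinned to 921167 counts (adjusted p = 0.00544).

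*Ucp1*, at chr8:84016647-84025085 on the + strand, showed the largest positive difference of the list at 22 weeks on AL, and also the largest spread. The *Ercc1*Δ/- samples had 3731, 2063, 335 and 1822 normalized counts and the WT samples 248, 156, 517 and 385. The groups overlapped through *Ercc1*Δ/- sample 013, which was also lowest of its group for *Adipoq*, *Plin1*, *Cidec*, *Cidea*, *Fabp4*, *Cfd*, *Retn*, *Lpl* and *Lep*. The log2 fold change was 2.51 (SE 0.88, adjusted p = 0.0854), and it was 3.02 without sample 013 (adjusted p = 0.0381).

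The remaining secreted factors and droplet genes did not pass the threshold at 22 weeks on AL. *Cfd*, which encodes adipsin or complement factor D, had 142 to 488 normalized counts in *Ercc1*Δ/- and 90.8 to 131 in WT mice without overlap (log2 fold change 1.03, SE 0.38, adjusted p = 0.0935). *Retn*, which encodes resistin, had a log2 fold change of 1.14 (SE 0.41, adjusted p = 0.075). For the droplet genes *Cidec* and *Plin1* the log2 fold changes were 1.14 (adjusted p = 0.256) and 0.53 (adjusted p = 0.648), and *Cidea* averaged 543 normalized counts in *Ercc1*Δ/- and 257 in WT mice (adjusted p = 0.346). *Fabp4*, the fatty acid carrier of adipocytes and of capillary endothelium, had 0.93 (adjusted p = 0.294), and *Adipoq*, which encodes adiponectin, 0.40 (adjusted p = 0.673). Taking the list as a whole, 9 of 10 log2 fold changes were above 0 with a median of 1.09, against 53.8% of all tested genes and a median of 0.03. Because the markers rose and fell together between mice, their directions are not independent of one another, here and in the comparisons below. In 3 markers, *Lep*, *Cfd* and *Lpl*, the genotypes did not overlap, as was true of 18.6% of tested genes.

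On DR the same genotype comparison was made in other mice. *Lpl* was again higher in *Ercc1*Δ/- mice, at 4662, 5876, 1946, 3778 and 5141 normalized counts in samples 006, 014, 016, 022 and 029, against 701, 877, 3345, 2965 and 1225 in the WT samples 007, 010, 017, 021 and 028. The groups overlapped, since the WT females 017 and 021 lay above the lowest *Ercc1*Δ/- sample. The means were 4280 ± 1511 (SD, n = 5) and 1822 ± 1238 (SD, n = 5), a log2 fold change of 1.41 (SE 0.41, adjusted p = 0.0365). It was the only marker called, where 13.0% of tested genes were called and 5.97% were called up, and no marker separated the genotypes completely, as 8.27% of tested genes did. This call held in 4 of the 10 fits without 1 mouse and was lost without any of the samples 006, 007, 010, 014, 028 or 029 (adjusted p 0.0291 to 0.0914, log2 fold change 1.23 to 1.62). It was also lost with sample 003 added (1.49, adjusted p = 0.0558).

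*Ucp1* had 1870 ± 754 normalized counts (SD, n = 5) in DR-fed *Ercc1*Δ/- and 778 ± 678 (SD, n = 5) in DR-fed WT mice (log2 fold change 1.57, SE 0.71, adjusted p = 0.178). Its lowest value of all, 29.4, was in WT sample 007, which had the lowest share of fat RNA. *Fabp4* had a log2 fold change of 0.83 (SE 0.38, adjusted p = 0.18). *Adipoq* averaged 243 in both genotypes (log2 fold change 0.23, SE 0.39, adjusted p = 0.777).

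**Figure D2:**
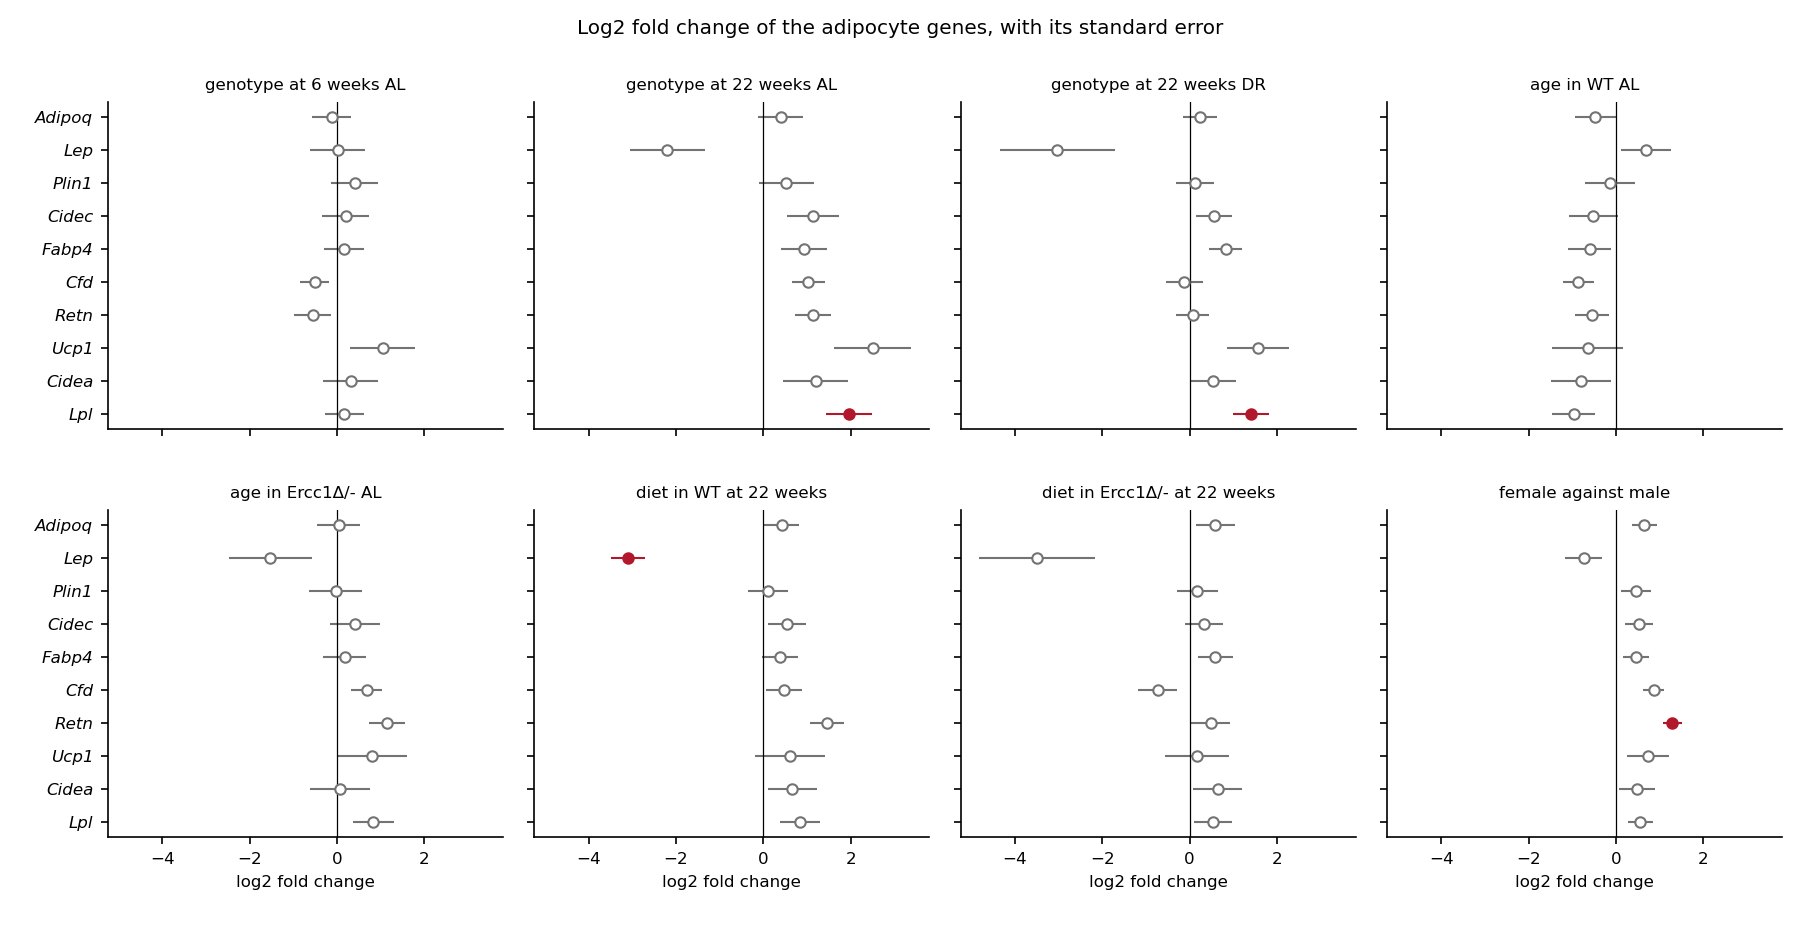
Log2 fold change of each fat marker (points) with its standard error (bars) in 8 comparisons, first-named state minus the other: *Ercc1*Δ/- minus WT, 22 minus 6 weeks, DR minus AL and female minus male. Red points passed the test, namely *Lpl* in both genotype comparisons at 22 weeks (1.97 and 1.41), *Lep* with diet in WT mice (-3.09) and *Retn* with sex (1.29).

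With age, no marker passed the test in either genotype. In AL-fed WT mice 0.235% of tested genes were called, and 9 of the 10 markers had a log2 fold change below 0 from 6 to 22 weeks, with a median of -0.57 against -0.00 for all genes. *Cidea* had 517, 427, 579, 354 and 338 normalized counts at 6 weeks and 326, 175, 281 and 248 at 22 weeks. The ages did not overlap (log2 fold change -0.80, SE 0.68, adjusted p = 0.845), and *Cidea* was the only marker of which this was true, as for 3.85% of tested genes. *Lep* was the only marker with a positive value, 0.69 (SE 0.57, adjusted p = 0.833). In AL-fed *Ercc1*Δ/- mice, where 4.69% of tested genes were called and the ages did not overlap for 6.78% of genes and none of the markers, the largest differences were 1.15 for *Retn* (SE 0.42, adjusted p = 0.135) and -1.53 for *Lep* (SE 0.95, adjusted p = 0.444), and *Adipoq* differed by 0.04 (SE 0.49, adjusted p = 0.985). At an unadjusted p under 0.05 there was 1 marker in each of the age comparisons, *Cfd* in WT and *Retn* in *Ercc1*Δ/- mice, and DESeq2 called none. These comparisons share the 22-week AL-fed mice with those of genotype.

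Dietary restriction lowered *Lep* in WT mice. The AL-fed mice had 60.2, 35.9, 35 and 25.8 normalized counts and the DR-fed mice 4.68, 1.45, 7.81, 5.99 and 1.22. The groups were far apart, with the highest DR-fed sample well under the lowest AL-fed one. The means were 39.2 ± 14.7 (SD, n = 4) and 4.23 ± 2.87 (SD, n = 5), a log2 fold change of -3.09 (SE 0.39, adjusted p = 7.63e-05). Summed over each group, 249 reads stood against 27, and the AL-fed level was 8.16 times the DR-fed level relative to library size (95% counting interval 5.48 to 12.6). *Lep* was the only marker called where 1.28% of tested genes were called and 0.939% were called down, and this call held under every alternative and without any 1 mouse (adjusted p of at most 0.023). No other marker had groups apart, as was true of 5.14% of tested genes.

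The fat markers other than *Lep* did not fall with *Lep*. In DR-fed WT mice 9 of 10 log2 fold changes were above 0 with a median of 0.51, against 52.5% of all tested genes and a median of 0.01. *Adipoq* averaged 243 ± 192 (SD, n = 5) against 140 ± 48 (SD, n = 4) on AL (log2 fold change 0.42, SE 0.41, adjusted p = 0.736). *Retn* averaged 25.7 ± 21.3 against 8.55 ± 4.75 (log2 fold change 1.46, SE 0.39, adjusted p = 0.0662). It passed the threshold without WT sample 010 (adjusted p = 0.0432). The DR-fed WT group was wide for most markers, because the females 017 and 021 had 530 and 351 normalized counts of *Adipoq* while the males 007, 010 and 028 had 87.5, 136 and 111.

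In *Ercc1*Δ/- mice no marker passed the test for diet, where 1.64% of tested genes were called, and DESeq2 also called none, although it gave *Lep* no adjusted p. The diets overlapped for every marker, while they did not for 5.02% of tested genes. *Lep* was the only marker with an unadjusted p under 0.05, and it was near the limit of detection, with 9.02, 3.15, 0 and 12.4 normalized counts on AL and 2.35, 0, 0, 0 and 0 on DR. These are 18 reads over 4 mice against 1 read over 5 mice (log2 fold change -3.50, SE 1.33, adjusted p = 0.185), a ratio of 15 with a counting interval of 2.37 to 626. In the 4 samples with no read, a limit of 3 counts corresponds to 4.09 to 11.8 normalized counts, against 1.22 to 7.81 measured in the DR-fed WT mice, so that these libraries could show only part of that range. Pooled, the 27 reads of DR-fed WT mice against 1 read of DR-fed *Ercc1*Δ/- mice gave a ratio of 10.3 (1.69 to 420). Of the other markers *Adipoq* had a log2 fold change of 0.59 (SE 0.44, adjusted p = 0.582), *Lpl* 0.53 (SE 0.43, adjusted p = 0.622), *Ucp1* 0.17 (SE 0.73, adjusted p = 0.949) and *Cfd* -0.73 (SE 0.45, adjusted p = 0.485).

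Whether the genotypes differed in their response was tested by interaction terms. No marker passed for genotype by age, with 0.842% of tested genes called, or for genotype by diet, with 0.0971%. For age, 3 markers had an unadjusted p under 0.05: *Retn* (1.70, SE 0.59, adjusted p = 0.228), *Cfd* (1.54, SE 0.52, adjusted p = 0.242) and *Lpl* (1.79, SE 0.70, adjusted p = 0.349). DESeq2 called *Cfd* (1.42, adjusted p = 0.0498) and gave *Lep* and *Retn* no adjusted p. For diet none had an unadjusted p under 0.05 and DESeq2 called none, again with no adjusted p for *Lep*. The *Lep* term was -0.41 (SE 1.18, adjusted p = 0.962), too wide an error to show whether the difference of *Lep* with diet was unequal between genotypes.

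*Retn*, at chr8:3705324-3710689 on the + strand, was higher in females. The 11 females had 11.2 to 49.5 normalized counts with a median of 28.6, and the 17 males had 2.66 to 30.6 with a median of 8.55. In 4 of the 6 groups every female lay above every male. With group in the model the log2 fold change of females over males was 1.29 (SE 0.22, adjusted p = 0.00217), and *Retn* was the only marker called, where 0.186% of tested genes were called and 0.0971% were called up. The call was kept in all 28 fits without 1 mouse and was lost when libraries were thinned to 921167 counts (log2 fold change 1.04, adjusted p = 0.241). *Cfd* had females above males in 4 of 6 groups as well (log2 fold change 0.86, SE 0.24, adjusted p = 0.217). *Lep* was the only marker with a lower value in females (-0.74, SE 0.42, adjusted p = 0.703).

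Ratios between markers within a sample were used to describe the composition of the fat RNA. They do not depend on how much fat the sample held if the fat has 1 composition. None of those given here is taken to a marker of white fat alone, so that they do not measure brown against white character. Each is the log2 ratio of the raw counts of 2 genes, with a small constant added to both counts. *Ucp1* relative to *Adipoq* was 3.57, 3.33, 2.30 and 3.55 in 22-week AL-fed *Ercc1*Δ/- mice and 0.31, 0.03, 2.10 and 2.14 in WT mice of that age and diet. On DR it was 2.94, 3.25, 2.87, 2.72 and 2.75 in *Ercc1*Δ/- and -1.56, 1.90, 1.58, 1.99 and 1.72 in WT mice. At 22 weeks the genotypes therefore did not overlap on either diet. At 6 weeks they did, with 1.01 to 3.04 in *Ercc1*Δ/- and 0.24 to 1.89 in WT mice. The same held for *Ucp1* relative to *Cidea*, a droplet protein prominent in brown fat, with 1.16 to 2.04 in the 9 *Ercc1*Δ/- and -2.08 to 0.88 in the 9 WT mice at 22 weeks. These ratios are given with results of these data already known, as a description with no test.

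*Lpl* relative to *Fabp4* set the 22-week *Ercc1*Δ/- mice apart from all others. The log2 ratio was 0.25, 0.18, 0.07 and 0.27 on AL and 0.07, 0.27, 0.12, 0.05 and 0.23 on DR. It was below 0 in each of the other 19 samples, from -1.05 to -0.81 in 22-week AL-fed WT mice, from -0.58 to -0.29 in DR-fed WT mice, from -0.84 to -0.08 in 6-week WT mice and from -0.61 to -0.15 in 6-week *Ercc1*Δ/- mice. Within the WT mice at 22 weeks, the diets did not overlap. Against *Adipoq* the genotypes did not overlap at 22 weeks either, with 3.89 to 4.57 for *Lpl* in *Ercc1*Δ/- and 1.80 to 3.46 in WT mice, but the diets did overlap within WT mice. This too is a description of values already seen.

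**Figure D3:**
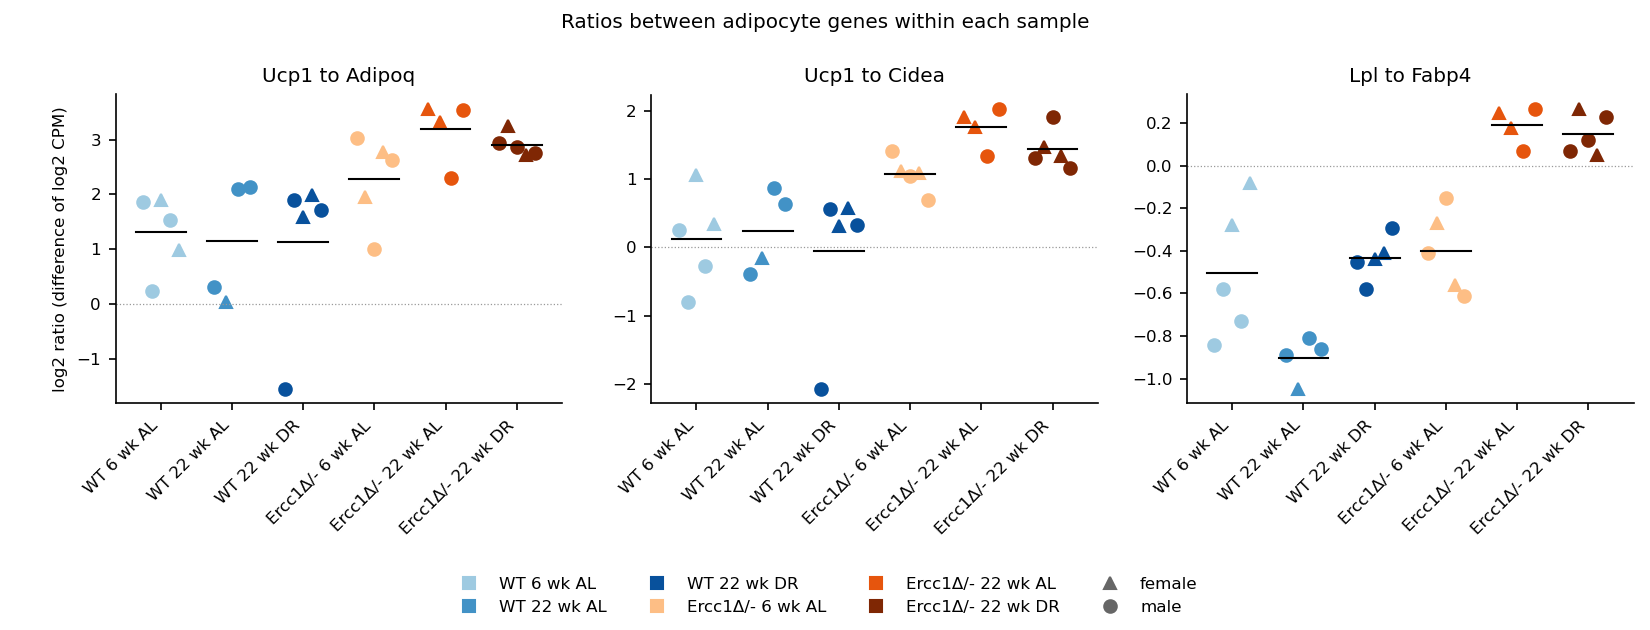
Log2 ratio of *Ucp1* to *Adipoq*, *Ucp1* to *Cidea* and *Lpl* to *Fabp4* in each of 28 mice, by group, with a bar at the group mean. The ratios were taken between raw counts with a small constant added, although the axis label names a difference of log2 CPM. All 9 *Ercc1*Δ/- mice of 22 weeks lie above 0 in the *Lpl* to *Fabp4* panel and all other mice below it, and sample 007 stands low in both *Ucp1* panels.

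Another way to separate level from composition was to add the mean log2 CPM of 44 other white and brown adipocyte genes to the model as a covariate. This score ran from 4.13 to 6.44 over the samples. With it, *Lpl* remained higher in *Ercc1*Δ/- mice on AL (log2 fold change 1.49, SE 0.20, adjusted p = 1.51e-04) and on DR (0.89, SE 0.12, adjusted p = 1.45e-05). The covariate fit also called *Lpl* up with age in *Ercc1*Δ/- mice (0.83, SE 0.18, adjusted p = 0.0106), up with DR in WT mice (0.63, SE 0.12, adjusted p = 0.00647) and in the genotype by age interaction (1.51, SE 0.26, adjusted p = 0.00887). *Lep* was lower in AL-fed *Ercc1*Δ/- mice (-3.42, SE 0.74, adjusted p = 0.00558) and in DR-fed WT mice (-3.57, SE 0.38, adjusted p = 2.51e-06). In the DR-fed genotype comparison *Fabp4* was called up (0.36, SE 0.11, adjusted p = 0.0396) and *Plin1*, at 0.12 without the score, was called down (-0.46, SE 0.13, adjusted p = 0.0281). *Ucp1* was not called (1.41, SE 0.43, adjusted p = 0.0583 on AL). Since 20 of the score's genes are markers of brown fat, of which some differ between genotypes themselves, the covariate takes out part of any such difference.

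**Figure D4:**
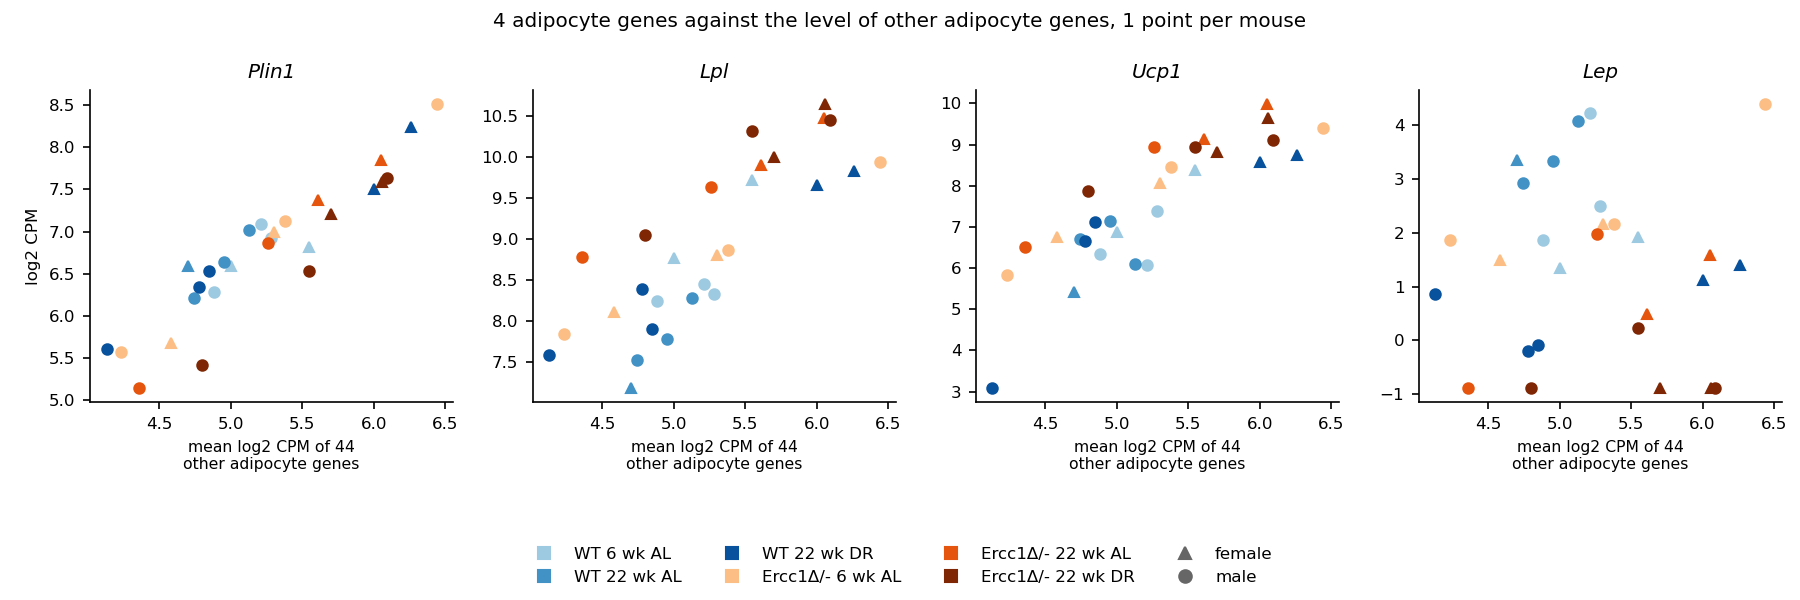
Log2 CPM of *Plin1*, *Lpl*, *Ucp1* and *Lep* against the mean log2 CPM of 44 other adipocyte genes in 28 mice, coloured by group. *Plin1* rises with the score in all groups, *Lpl* of the 22-week *Ercc1*Δ/- mice lies above that of other mice at the same score, and *Lep* shows no common line.

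The brown fat genes outside the list went in the direction of *Ucp1*. Of 22 such genes 20 were tested, and at 22 weeks on AL 4 were called up and 1 down in *Ercc1*Δ/- mice, with 19 above 0 and a median log2 fold change of 1.19, where 5.88% of all tested genes were called up, 12.0% were called in either direction and 53.8% were above 0. *Elovl3*, a fatty acid elongase of active brown fat, had 33.5 to 448 normalized counts in *Ercc1*Δ/- and 4.15 to 23.1 in WT mice (log2 fold change 4.18, SE 0.96, adjusted p = 0.0119). *Ppargc1a*, the coactivator that drives mitochondrial gene expression, rose by 1.57 (SE 0.28, adjusted p = 7.19e-04), *Dio2*, which makes active thyroid hormone, by 1.14 (SE 0.23, adjusted p = 0.0041) and the potassium channel gene *Kcnk3*, named after its value was seen, by 1.88 (SE 0.55, adjusted p = 0.0399). *Prdm16*, a regulator of brown fat identity, was lower (-0.83, SE 0.22, adjusted p = 0.0165). On DR 5 were called up and 1 down, where 5.97% of all tested genes were called up and 13.0% in either direction, namely these genes in the same directions and, also named after its value was seen, *Fabp3* (1.33, SE 0.39, adjusted p = 0.0372). None was called at 6 weeks, with age or with diet, and *Dio2* passed in the genotype by age interaction (1.39, SE 0.31, adjusted p = 0.0473). *Zic1*, a marker of classical brown fat, had 0 counts in 25 of the 28 samples. *Dio2*, *Kcnk3*, *Ppargc1a* and *Prdm16* are also expressed outside fat.

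Of 24 further genes of adipocytes in general, 2 were called at 22 weeks on AL, both lower in *Ercc1*Δ/- mice, a share no higher than the 12.0% of all tested genes. The list did not go their way, since 19 of the 24 log2 fold changes were above 0. Their median was 0.33, against 53.8% above 0 and a median of 0.03 over all tested genes. *Nnat*, which encodes neuronatin, had 0 to 7.47 normalized counts in *Ercc1*Δ/- and 12.4 to 38.5 in WT mice (log2 fold change -2.03, SE 0.57, adjusted p = 0.0202). Like *Lep* it was also lower on DR in WT mice, with 2.9 to 4.68 normalized counts (log2 fold change -2.67, SE 0.39, adjusted p = 3.83e-04), and it was lower at 22 than at 6 weeks in *Ercc1*Δ/- mice (-2.27, SE 0.56, adjusted p = 0.0188). The droplet protein gene *Plin4*, also expressed in muscle, was lower in AL-fed *Ercc1*Δ/- mice (-0.48, SE 0.13, adjusted p = 0.0162) and higher on DR in *Ercc1*Δ/- mice (0.65, SE 0.12, adjusted p = 0.00631). *Mest*, a gene of fat expansion, was higher in *Ercc1*Δ/- mice on DR (1.56, SE 0.44, adjusted p = 0.0179), where it was the only one of the 24 called. Among 15 genes of fat synthesis and breakdown, *Abhd5*, the coactivator of triglyceride lipase, was higher at 22 weeks on AL (0.64, SE 0.15, adjusted p = 0.00591), and *Gpam* and *Lpin1* were higher on DR (1.04 and 0.94, adjusted p = 0.0316 and 0.0384), all in *Ercc1*Δ/- mice. These were the only calls of the list by genotype, where 5.88% of all tested genes were called up on AL and 5.97% on DR.

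The partners of lipoprotein lipase and the receptors of the secreted factors were measured in the same samples. Of 11 partners 6 were tested. *Gpihbp1*, which carries the lipase across the capillary wall, had 78.5 to 109 normalized counts in 22-week AL-fed *Ercc1*Δ/- and 24.4 to 53 in WT mice (log2 fold change 1.16, SE 0.36, adjusted p = 0.0423). *Angptl8*, a secreted regulator of the lipase, was higher on DR in WT mice, at 11.4 to 65.9 against 3.42 to 8.73 (log2 fold change 2.71, SE 0.43, adjusted p = 0.00204). Of 8 receptors 7 were tested. *Cdh13*, which encodes T-cadherin, a receptor of adiponectin on vessel cells, was lower in *Ercc1*Δ/- mice at 6 weeks (-0.46), at 22 weeks on AL (-0.87) and on DR (-0.98), with adjusted p of at most 0.00481. *Cap1*, which encodes a resistin receptor, was lower at 6 weeks and on DR (-0.43 in each, adjusted p = 0.0121 and 3.66e-04). *Lepr*, the leptin receptor gene, rose with age in *Ercc1*Δ/- mice, from 39.1 to 76.3 at 6 weeks to 162 to 237 at 22 weeks (log2 fold change 1.50, SE 0.27, adjusted p = 0.00231), and fell on DR (-0.75, SE 0.18, adjusted p = 0.0353).

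Genes of other cell types, of the wall itself and of neighbouring tissues that a dissected arch can carry, were compared between genotypes as well. *Tnnt2*, cardiac troponin T, had 610 to 1261 normalized counts in 22-week AL-fed *Ercc1*Δ/- and 152 to 249 in WT mice (log2 fold change 1.96, SE 0.49, adjusted p = 0.0177), and was the only one of 6 tested cardiac genes called. On AL it was also the only 1 of the 6 with a log2 fold change above 0, and their median was -0.52. On DR 5 of the 6 lay above 0 with a median of 1.29, and only *Tnnt2* was called (1.37, SE 0.25, adjusted p = 0.00209). The defining atrial and ventricular genes were low, with *Nppa* at 0 counts in 26 samples and a median of 49.5 normalized counts for *Myh6*. Summed over 8 cardiac genes, *Tnnt2* included, levels were 759 to 1376 in 22-week AL-fed *Ercc1*Δ/- and 507 to 1056 in 22-week AL-fed WT mice. Among 5 tested mesothelial genes none was called on AL and *Upk1b* was higher on DR in *Ercc1*Δ/- mice (1.86, SE 0.55, adjusted p = 0.0363). All 5 had a log2 fold change above 0 on both diets, with a median of 1.41 on AL and 1.31 on DR. Of 8 endothelial genes 1, *Emcn*, was higher on AL (0.97, adjusted p = 0.0262) and 4 were higher on DR, among them *Egfl7* (0.72, adjusted p = 0.00134). Beside the counts of all lists in this paragraph stand the shares of all tested genes. These were 12.0% called on AL and 13.0% on DR, of which 5.88% and 5.97% were called up. Of 8 fibroblast genes *Col14a1* and *Pi16* were lower in *Ercc1*Δ/- mice on AL (-0.65 and -0.74), and on DR *Pi16* was lower and *Pdgfra* higher (-0.50 and 0.34). Skeletal muscle and Schwann cell genes gave no calls, with 1 of 8 and 4 of 6 tested, and 1 of 8 lymphoid genes, *Ptprc*, was tested and was higher in *Ercc1*Δ/- mice at 22 weeks (1.74 on AL and 1.80 on DR). *Lpl* and *Fabp4* are expressed in macrophages, and *Lpl* in heart muscle, so that these values stand beside theirs. Their part in the *Lpl* and *Fabp4* differences was not tested.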

How the data were processed

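Total RNA of mouse aortic arches was sequenced by the authors, who trimmed, aligned (STAR 2.7.10a, GRCm39), collapsed reads by molecular identifier (UMI-tools 1.1.2) and counted them per gene (HTSeq 2.0.2). The deposited values are raw counts, with 1 column for each of 29 samples. Sample 003 (400410 counts) was left out as in the study, which named both its low read counts and its divergent expression. The 5 summary lines of the counter, 12.6% to 18.7% of all deposited counts per sample, were kept out of totals and tests. Reads shared by overlapping genes were 1.64% to 2.11% and are not in the gene counts.

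Genes for which over 10 samples of 28 held over 10 counts were tested with edgeR 4.0.16 (R 4.3.3) by its quasi-likelihood test after TMM scaling (factors 0.935 to 1.07), with group and sex in the model. Comparisons at 6 and 22 weeks on AL (genotype and age) came from 1 fit of 18 samples, those of diet and of genotype on DR from 1 fit of the 18 samples at 22 weeks, and sex from all 28. Comparisons within a fit share samples. Called means a p, adjusted after Benjamini and Hochberg, no higher than 0.05 and a change of at least 1.2-fold, with no fold limit for interactions. Log2 CPM used a prior count of 2. Symbols came from GENCODE, and all 158 listed symbols were matched. Count intervals are at 95% and cover counting error only.

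Named were the 10 markers, the called genes with the 4 smallest p-values of each list and comparison, the 12 genes most like the markers, and defining genes of other cell types. By this rule further called genes of the smooth muscle, macrophage, endothelial and other cell type lists qualify, which are given by their counts, and *Kcnk3* and *Fabp3* were named outside it. The markers and all lists were chosen with earlier results of these data known. Alternatives were DESeq2 1.42.0, RLE factors, no filter, sample 003 added, a score of other adipocyte genes as covariate, thinning, no sex term, other sets of groups in the fit, each mouse left out and, added after the data were seen, the earlier dispersion method of edgeR. On simulated counts of 12353 genes for the genotype comparison at 22 weeks on AL, 185 of 200 genes changed 3-fold were called in the right direction, and 9 unchanged genes were called. The upstream sequence of 1 marker is not reported here.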

Additional observations from a re-analysis of the deposited data

Results flagged for a closer look

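Of 60 sets of values, 1 for each marker and group, 8 held a sample far from the rest by Dixon's criterion, which chance gives in about 1 of 20. In the 6-week *Ercc1*Δ/- group, the male 027 stood above the others for *Adipoq* (401 normalized counts, nearest 156), *Lep* (75.1, nearest 14.6), *Cidec* (903, nearest 337) and *Cidea* (1546, nearest 483). In the 6-week WT group, *Lep* was 66.6 in the male 009 (nearest 18.9), and the female 011 had 3781 for *Fabp4* (nearest 2110) and 3114 for *Lpl* (nearest 1590). The *Lep* value of 2.35 in the DR-fed *Ercc1*Δ/- male 006 rests on 1 count where the other 4 mice had 0. No marker was called at 6 weeks with or without sample 027, 009 or 011.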

How the results depend on the processing

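No paired analysis was possible because each mouse gave 1 sample with a number of its own, so that the groups share no replicate numbers. All 10 markers passed the count filter, which leaves no result for markers below it. The number of markers called in the genotype comparison at 22 weeks on AL was 1 (*Lpl*) and became 4 with DESeq2 (*Lep*, *Cfd*, *Ucp1*, *Lpl*), 3 without the sex term (*Retn*, *Ucp1*, *Lpl*), 2 with the covariate and with thinning (*Lep*, *Lpl* in both), 2 with only the groups compared (*Lep*, *Cfd*), 0 with sample 003 added, and 0 to 2 without 1 mouse. In the genotype comparison on DR it was 1 (*Lpl*) and became 2 with DESeq2 (*Lep*, *Lpl*), 3 with the covariate (*Plin1*, *Fabp4*, *Lpl*), 0 with no filter, with sample 003 added, without the sex term, with all 6 groups and with only the groups compared, and 0 to 1 without 1 mouse. For age in *Ercc1*Δ/- mice it was 0 and became 1 with the covariate (*Lpl*), and 0 to 1 without 1 mouse (*Retn* without sample 005). For diet in WT mice it was 1 (*Lep*) and became 2 with no filter, with all 6 groups and with only the groups compared (*Lep*, *Retn*), 2 with the covariate (*Lep*, *Lpl*), and 1 to 2 without 1 mouse (*Retn* joined without sample 010). For genotype by age it was 0 and became 1 with DESeq2 (*Cfd*) and 1 with the covariate (*Lpl*). For sex it was 1 (*Retn*) and became 0 with thinning. The counts for the other comparisons stayed at 0 under the alternatives run. Among single values, *Plin1* in the genotype comparison on DR turned from 0.12 to -0.46 with the covariate, 22 gained and 20 lost a call, and 2193 kept their side of the threshold. Of 2236 refitted values, 127 changed sign without a call before or after. The causes were not tested. *Lep* in DR-fed *Ercc1*Δ/- mice is limited by depth, with 1 read in all, and *Retn* had more than 10 counts in 14 samples only.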

Other observations

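Sample 003, a 22-week AL-fed WT female that entered no comparison, had 400410 gene counts, of which 0.432% lay on the 10 markers, against 0.0778% to 0.133% in the other 4 mice of its group. It had 6981 normalized counts of *Fabp4*, 3643 of *Lpl*, 1493 of *Ucp1*, 1168 of *Plin1*, 1075 of *Cidea*, 649 of *Cidec*, 473 of *Adipoq* and 464 of *Cfd*, each above all 4 other mice of the group. *Lep* stood at 83.4, from 9 counts, and *Retn* at 9.27, from 1 count.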
